A study of Mus musculus with 2 samples.

Results

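The E2F and retinoblastoma family genes described here were E2f1 to E2f8, which encode the E2F transcription factors, and Rb1 and Rbl1, which encode pocket proteins that bind E2Fs. They were chosen by symbol, by matching the Ensembl gene identifiers of the deposited tables without their versions to GENCODE M21, and all 10 were found among 43346 gene entries. The cells were G1E, an immortalised mouse line of Gata1- erythroid progenitors by its labels, from a male of postnatal age (0 day). The data were 2 paired-end RNA-seq libraries of polyadenylated RNA, replicate 1 and replicate 2, which formed 1 group with no other condition. Although numbered as biological replicates, both libraries cite the same cell sample in the labels, so their spread may be technical, and every p-value below measures the difference between these libraries and nothing wider.

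E2F factors bind short GC-rich sites in the promoters of genes for DNA replication, nucleotide supply and cell division, most of them as a pair with a DP protein. Pocket proteins bind E2Fs, mask their activation domain and bring in corepressors, and cyclin-dependent kinases release the E2Fs by phosphorylating the pocket proteins. In mice, loss of Rb1 or of E2f4 gives fetal anaemia, and E2f2 and E2f8 also act in the terminal divisions of red cell precursors.

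Promoter windows are shown for the members whose window held a match to the E2F consensus, and for both starts of E2f3, since the E2f3 transcripts carry the largest discrepancy between counts and levels given below. Each window runs 5′ to 3′ on the strand of its gene, from 250 bases before the RefSeq start to 50 bases from the start onwards, on build GRCm38.p6. Capitals mark a match to TTTCGCGC, TTTGGCGC, TTTCCCGC or TTTGCCGC, searched on both strands, so a match on the opposite strand appears as its reverse complement.
E2f2, plus strand, chr4:136172024-136172323: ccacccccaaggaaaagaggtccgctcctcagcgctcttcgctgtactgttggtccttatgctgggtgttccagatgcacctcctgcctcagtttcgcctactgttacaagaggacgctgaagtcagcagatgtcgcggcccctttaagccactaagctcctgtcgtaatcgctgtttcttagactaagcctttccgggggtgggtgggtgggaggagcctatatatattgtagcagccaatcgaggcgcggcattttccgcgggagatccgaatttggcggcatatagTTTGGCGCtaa
E2f3 upstream start, minus strand, chr13:29986014-29986313: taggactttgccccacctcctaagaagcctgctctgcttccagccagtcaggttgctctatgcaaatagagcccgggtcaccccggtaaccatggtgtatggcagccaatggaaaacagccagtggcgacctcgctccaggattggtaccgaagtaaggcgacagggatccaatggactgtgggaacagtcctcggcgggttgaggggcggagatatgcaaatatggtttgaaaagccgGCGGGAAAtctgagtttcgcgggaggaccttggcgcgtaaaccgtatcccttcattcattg
E2f3 downstream start, minus strand, chr13:29984342-29984641: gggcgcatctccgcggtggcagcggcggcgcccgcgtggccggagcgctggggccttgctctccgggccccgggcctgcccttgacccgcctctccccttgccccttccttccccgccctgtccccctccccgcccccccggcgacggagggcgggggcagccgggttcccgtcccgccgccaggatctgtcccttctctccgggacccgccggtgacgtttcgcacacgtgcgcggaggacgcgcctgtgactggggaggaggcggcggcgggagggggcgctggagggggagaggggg
E2f7, plus strand, chr10:110745189-110745488: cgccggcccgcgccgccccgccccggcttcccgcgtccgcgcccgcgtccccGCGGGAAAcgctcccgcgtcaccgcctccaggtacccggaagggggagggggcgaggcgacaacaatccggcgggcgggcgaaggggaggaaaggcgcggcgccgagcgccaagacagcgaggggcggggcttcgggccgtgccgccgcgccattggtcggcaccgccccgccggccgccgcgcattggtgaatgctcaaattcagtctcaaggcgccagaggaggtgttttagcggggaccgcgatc
Rbl1, minus strand, chr2:157204485-157204784: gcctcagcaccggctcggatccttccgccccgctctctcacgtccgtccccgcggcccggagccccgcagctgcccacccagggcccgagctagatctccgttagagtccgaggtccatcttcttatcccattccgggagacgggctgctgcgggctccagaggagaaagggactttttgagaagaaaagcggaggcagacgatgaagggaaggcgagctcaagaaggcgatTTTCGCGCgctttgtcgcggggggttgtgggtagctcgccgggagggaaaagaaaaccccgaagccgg

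Of the 7 members with a RefSeq window, 4 held a match, against 2.60% of the 27025 genes with windows. The match in Rbl1 was TTTCGCGC on the gene's strand, beginning 18 bases before the start. E2f3 held TTTCCCGC on the opposite strand, with its first printed base 11 bases before the upstream start, and the window at the downstream start held none. E2f7 held TTTCCCGC on the opposite strand, 198 bases before the start, and E2f2 held TTTGGCGC on its own strand at base 40, where base 1 is the RefSeq start, which lies 120 bases before the GENCODE start. The window at a second RefSeq start of E2f2, 8388 bases downstream of the GENCODE start, held none. E2f1, E2f6 and E2f8 had no match in their windows, and the RefSeq start of E2f1 lay 466 bases downstream of the GENCODE start of the gene, so the sequence before that earlier start was not searched. A match is a description of letters and not of a bound site. The windows of E2f1, E2f7 and the downstream start of E2f3 had 77.3%, 75.3% and 78.7% G and C, while E2f6, E2f8 and Rbl1 had 64.0% to 68.0% and the windows of E2f2 and the upstream start of E2f3 had 54.7% to 56.7%. The median over all 32851 windows was 52.7%, below every member window, and windows with a match had 54.7% to 75.3%. Every motif searched contains CG, and no share of matches was taken over windows of like G and C content. The count of matches in the members was thus not separated from base composition.

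All 10 genes were detected in G1E cells, at 1 TPM (length-scaled transcript abundance) or more in both libraries. Detection at that level held for 8581 of 21474 protein-coding entries (40.0%), whose median was 16.97 TPM in replicate 1 and 19.02 TPM in replicate 2. Being scaled by length, TPM lets genes be compared within a library, and values written as mean ± SD below are over the 2 libraries (n = 2). In these bulk libraries, fewer cells that express a gene and less RNA per cell cannot be told apart. The library totals were 61982634 expected counts, the estimated read pairs per gene, in replicate 1 and 80658648 in replicate 2. Gata1, the gene named in the line's label, had 48.02 TPM in replicate 1 and 46.61 TPM in replicate 2, and a total over the gene cannot tell an intact from a disrupted transcript. All 8 erythroid progenitor markers were detected, from 83.31 to 1231.59 TPM in replicate 1 and from 110.10 to 1159.19 TPM in replicate 2. Of 10 markers of other cells, 6 were at 0 in both libraries, Cd3e, Pecam1, Col1a2, Pou5f1 and Nanog among them, 1 (Mpo, of granulocyte precursors) was detected, and the list summed to 2.57 TPM in replicate 1 and 3.30 TPM in replicate 2.

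Among the activating E2Fs, which drive entry into S phase and are restrained by the retinoblastoma protein, E2f1 was the highest of the 10 members. E2f1 (ENSMUSG00000027490.13, minus strand of chr2:154559407-154569892) had 93.12 TPM in replicate 1 and 93.96 TPM in replicate 2, a mean of 93.5 ± 0.594 TPM. Its expected counts were 13462 in replicate 1 and 17174 in replicate 2. Its mean lay at percentile 83.9 of the detected protein-coding genes, and gene coordinates here are those of GENCODE M21 on mm10. E2f2 (ENSMUSG00000018983.9, plus strand of chr4:136172394-136196057), the activator linked to red cell maturation, had 44.93 TPM in replicate 1 and 46.33 TPM in replicate 2. For both genes the libraries lay close together, with an SD of 0.990 TPM for E2f2.

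E2f3 (ENSMUSG00000016477.13, minus strand of chr13:29906575-29986063) was the least even of the activators. It had 48.32 TPM in replicate 1, with a deposited credibility interval of 42.1 to 53.7, and 34.73 TPM in replicate 2, with an interval of 30.1 to 39.0. The intervals did not overlap, and the mean was 41.5 ± 9.61 TPM. It had 3393 expected counts in replicate 1 and 3251 in replicate 2, while E2f2, of similar TPM, had 11531 in replicate 1 and 15002 in replicate 2. The deposited effective length of E2f3 was 1257 bases in replicate 1 and 1324 bases in replicate 2, and that of E2f2 was 4595 bases in replicate 1 and 4579 bases in replicate 2.

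The repressive E2Fs bind pocket proteins in resting and early G1 cells, except E2F6, which acts with Polycomb proteins instead. E2f4 (ENSMUSG00000014859.8, plus strand of chr8:105297663-105305370), the main E2F of the DREAM repressor complex, was the second highest member, at 66.11 TPM in replicate 1 and 78.84 TPM in replicate 2. E2f5 (ENSMUSG00000027552.10, plus strand of chr3:14578641-14606309), a close relative of E2f4, was the lowest of the 10, at 6.34 TPM in replicate 1 and 4.95 TPM in replicate 2, percentile 23.7 of detected protein-coding genes. E2f6 (ENSMUSG00000057469.7, plus strand of chr12:16810963-16839742) had 8.22 TPM in replicate 1 and 7.81 TPM in replicate 2. E2f4 thus stood above E2f5 and E2f6 in both libraries with no overlap of their values.

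The atypical E2Fs repress E2F targets late in S phase and bind DNA without a DP partner. E2f8 (ENSMUSG00000046179.13, minus strand of chr7:48866429-48881596) had 28.62 TPM in replicate 1 and 35.34 TPM in replicate 2, a mean of 32.0 ± 4.75 TPM. E2f7 (ENSMUSG00000020185.12, plus strand of chr10:110745439-110787384) had 22.55 TPM in replicate 1 and 24.33 TPM in replicate 2, below E2f8 in both. Of the pocket proteins, Rb1 (ENSMUSG00000022105.6, minus strand of chr14:73183673-73325822), which mainly restrains the activating E2Fs, had 9.98 TPM in replicate 1 and 11.67 TPM in replicate 2. Rbl1 (ENSMUSG00000027641.9, minus strand of chr2:157145893-157204534), which mainly pairs with the E2f4 product, had 10.96 TPM in replicate 1 and 10.98 TPM in replicate 2. The pocket protein genes overlapped each other in range, Rb1 at percentile 37.5 and Rbl1 at 37.9, below every E2F except E2f5 and E2f6.

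Ordered by mean TPM, the members ran E2f1, E2f4, E2f2, E2f3, E2f8, E2f7, Rbl1, Rb1, E2f6 and E2f5. In 3 of the neighbouring pairs the ranges of the libraries overlapped, so E2f2 and E2f3, E2f3 and E2f8, and Rbl1 and Rb1 did not differ beyond their spread. The activators E2f1 to E2f3 summed to 186 TPM in replicate 1 and 175 TPM in replicate 2, and E2f4 to E2f6 to 80.67 TPM in replicate 1 and 91.60 TPM in replicate 2. The log2 ratio of those sums was 1.21 in replicate 1 and 0.93 in replicate 2, a mean of 1.07 ± 0.19. E2f7 and E2f8 together had 51.17 TPM in replicate 1 and 59.67 TPM in replicate 2. E2f1 alone made up 29.0 ± 0.330% of the TPM of the 8 E2F genes and E2f4 22.5 ± 2.39%, while E2f5 and E2f6 made up 1.75 ± 0.336% and 2.49 ± 0.134%. The E2F sum exceeded that of Rb1 and Rbl1 by a log2 ratio of 3.93 in replicate 1 and 3.85 in replicate 2. Rbl1 over Rb1 gave log2 ratios of 0.14 in replicate 1 and −0.09 in replicate 2, so neither gene was the higher in both.

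**Figure D1:**
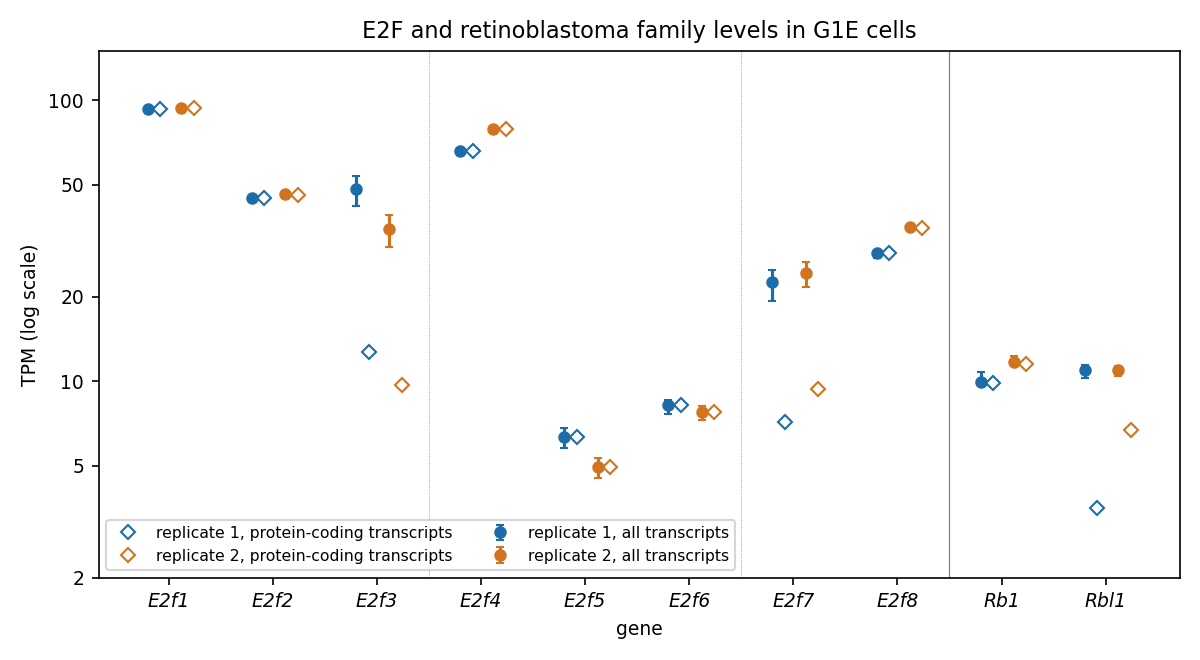
Level of each member in TPM (log axis) in replicate 1 (blue) and replicate 2 (orange). Filled circles are the deposited gene values with the deposited credibility interval, which is centred on a posterior mean and not on the plotted value, and open diamonds are the sums over protein-coding transcripts; solid and dotted lines part activators, repressors, atypical E2Fs and pocket proteins, and the diamonds fall well below the circles for E2f3, E2f7 and Rbl1.

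The transcript tables divided the gene levels unevenly, and for 3 members much of the TPM went to transcripts that are not annotated as protein-coding. In E2f3, the processed transcript E2f3-202 took 73.59% of the gene's TPM in replicate 1 and 72.02% in replicate 2. It had 143.30 expected counts in replicate 1 and 121 in replicate 2. Its deposited length was 216 bases, with an effective length of 72.15 bases in replicate 1 and 68.40 bases in replicate 2, the length over which a read pair can start. The coding transcript E2f3-201, of 4702 bases in the tables, took 26.41% of the TPM in replicate 1 and 27.98% in replicate 2, from 3249.70 counts in replicate 1 and 3130 in replicate 2. Protein-coding transcripts thus held 95.8% of the E2f3 counts in replicate 1 and 96.3% in replicate 2, and on their TPM alone E2f3 had 12.76 TPM in replicate 1 and 9.72 TPM in replicate 2. In GENCODE M21, E2f3-202 is 389 bases long in 4 exons and shares 207 bases with the exons of E2f3-201, which is 5097 bases long there. The annotation of both transcripts thus differed from the one used for the deposited values, and shared bases given here are those of M21.

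E2F3 is made in a longer and a shorter form from separate starts, and those are the 2 starts whose windows are shown above. The upstream start is that of E2f3-201 in GENCODE M21. GENCODE M21 lists 2 further coding transcripts, E2f3-203 and E2f3-204, from a start 1672 bases downstream at position 29984391, which has no coding transcript with an entry in the deposited tables. These share 4333 and 4315 exonic bases with E2f3-201 and each have 264 bases outside its exons, while they lack 764 and 782 of its bases. In M21 the processed transcript E2f3-202 starts 1822 bases downstream of E2f3-201, 150 bases past the start of the shorter form, and 114 of its 389 bases lie in exon sequence that E2f3-203 has and E2f3-201 lacks. Whether the deposited versions of E2f3-201 (4702 bases) and E2f3-202 (216 bases) have the same starts is not given in the sources used here. On the M21 structures, the tables hold no value for a coding transcript of the shorter form, and coding counts of the 2 forms cannot be told apart here.

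In E2f7, the processed transcript E2f7-203 (438 bases) took 64.07% of the TPM in replicate 1 and 59.43% in replicate 2. Those shares came from 237.33 of 1681 counts in replicate 1 and 296.89 of 2761 counts in replicate 2. It has 3 exons at the 5′ end of the gene and shares 260 bases with the coding transcript E2f7-204. E2f7-204 took 24.13% in replicate 1 and 29.65% in replicate 2. E2f7-201, which has the same coding sequence of 2712 bases and a longer final exon, took 4.45% in replicate 1 and 7.0% in replicate 2. On protein-coding transcripts alone, E2f7 had 7.18 TPM in replicate 1 and 9.43 TPM in replicate 2. Over all detected protein-coding genes, 1502 of 8581 (17.5%) had more than 50% of their TPM in transcripts of other classes in both libraries, and E2f3 and E2f7 were the 2 of 10 members that did.

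Rbl1 had nearly the same gene level in both libraries, but its transcripts differed in opposite directions. The coding transcript Rbl1-201, of 22 exons, had 3.54 TPM in replicate 1 and 6.72 TPM in replicate 2, from 931.62 counts in replicate 1 and 2239.82 in replicate 2. The retained-intron transcript Rbl1-202, which ends inside the gene after 13 exons and has 556 bases outside the exons of Rbl1-201, had 6.84 TPM in replicate 1 and 3.93 TPM in replicate 2. Rbl1-202 therefore led with 62.44% of the TPM in replicate 1, and Rbl1-201 led with 61.18% in replicate 2. Coding transcripts held 49.8% of the Rbl1 counts in replicate 1 and 76.8% in replicate 2. With coding transcripts only, the log2 ratio of Rbl1 over Rb1 was −1.47 in replicate 1 and −0.78 in replicate 2, with Rbl1 the lower in both.

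**Figure D2:**
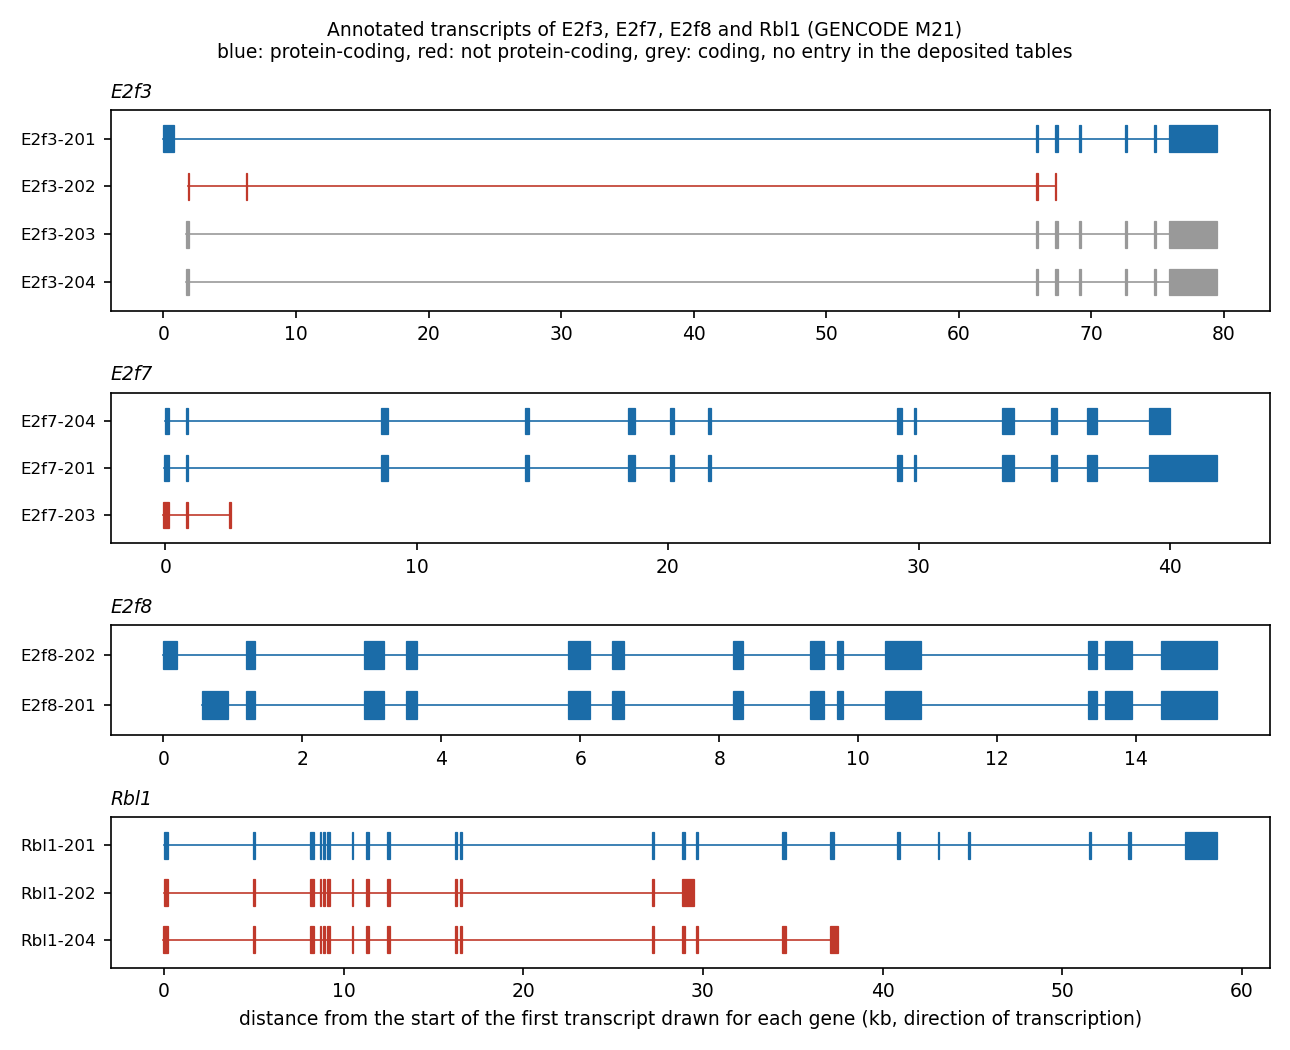
Exons (boxes) and introns (lines) of the named transcripts of E2f3, E2f7, E2f8 and Rbl1 in GENCODE M21, with the distance in kb from the start of the first transcript drawn for each gene, in the direction of transcription. The transcripts in red, which took most of the TPM of E2f3 and E2f7 and of Rbl1 in replicate 1, cover only part of their gene. E2f3-202 is drawn at its M21 length of 389 bases, not the 216 bases of the deposited tables. E2f3-201 is likewise drawn at 5097 bases, not 4702.

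Most other members were simple at the transcript level. E2f4 and E2f6 had 1 transcript each in the tables. E2f1-202 took 99.26% of the TPM in replicate 1 and 98.68% in replicate 2, and E2f2-201 took 100% in replicate 1 and 99.72% in replicate 2. Rb1-201, the 27-exon messenger, took 98.53% in replicate 1 and 98.74% in replicate 2. E2f8 was split between E2f8-202, with 77.10% in replicate 1 and 60.62% in replicate 2, and E2f8-201, with 22.77% in replicate 1 and 39.03% in replicate 2. The E2f8 transcripts start 555 bases apart, have different first exons and share 1 coding sequence of 2580 bases.

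E2f5 had its TPM divided between E2f5-201, with 39.63% in replicate 1 and 63.63% in replicate 2, and E2f5-202, with 60.37% in replicate 1 and 36.37% in replicate 2. Their coding sequences, of 1005 and 1008 bases, differ by 3 bases at the beginning of exon 4 (chr3:14601000-14601002), printed in capitals within the surrounding messenger from GENCODE M21.
E2f5-201: ctccattaataacagattttcttatgtaac
E2f5-202: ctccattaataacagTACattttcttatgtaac
The estimated order of the E2f5 transcripts was thus reversed between the libraries, with 573 counts in replicate 1 and 568 in replicate 2 to divide. E2f5-202 shares 1748 of its 1751 exonic bases with E2f5-201 and starts 30 bases downstream, so few reads can tell them apart. Whether the reversal lies in the RNA or in the division of reads was not tested. E2f5 and Rbl1 were the 2 of 8 members with several transcripts whose leading transcript differed between the libraries, against 855 of 6431 detected protein-coding genes with several transcripts (13.3%).

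**Figure D3:**
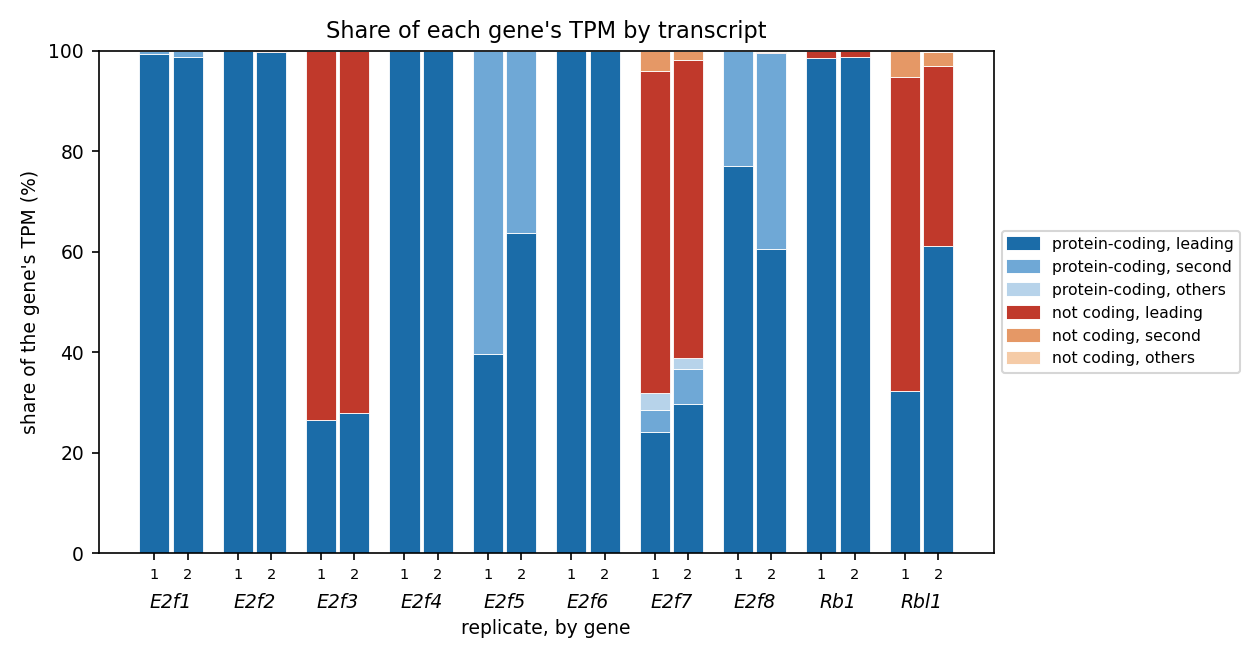
Share of each member's TPM (%) given to its transcripts in replicate 1 (left bar of each pair) and replicate 2 (right bar), with protein-coding transcripts in blue and all others in red and orange. E2f3 and E2f7 are mostly red in both libraries and Rbl1 is mostly red in replicate 1 only. E2f5 changes its leading transcript within the blue, between transcripts that share nearly all their bases.

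On protein-coding transcripts alone, the order became E2f1, E2f4, E2f2, E2f8, E2f3, Rb1, E2f7, E2f6, E2f5 and Rbl1. E2f3, at a mean of 11.2 ± 2.15 TPM, then overlapped Rb1 in range and lay below E2f8 in both libraries. E2f7, at 8.31 ± 1.59 TPM, overlapped E2f6, and Rbl1, at 5.13 ± 2.25 TPM, overlapped E2f5. E2f1 and E2f4 stood first and second, with no overlap with the next member, on both measures. E2f2 came next by its mean on both, overlapping E2f3 on all transcripts and lying above E2f8 in both libraries on protein-coding ones. The log2 ratio of E2f1 to E2f3 over E2f4 to E2f6 was 0.90 in replicate 1 and 0.71 in replicate 2.

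Each of 11636 genes was then compared between the libraries by an exact binomial test, two-sided, of its rounded expected counts, scaled by TMM (a trimmed mean of ratios between libraries). Requiring a ratio of at least 2-fold and an adjusted p under 0.05, none of the 10 members was called, against 5.77% of all genes tested (671, of which 215 were higher in replicate 1 and 456 in replicate 2). Without a fold requirement 9 of 10 members passed, 5 of them higher in replicate 1 and 4 higher in replicate 2, against 32.4% of all genes on the replicate 1 side and 32.4% on the replicate 2 side. The test knows only counting error, so at these depths small ratios pass it. With edgeR's negative binomial exact test, which adds a spread common to all genes, no member was called, against 0.98% of all genes. That spread, a coefficient of variation of 0.224, could only be estimated from these same 2 libraries, so the test asks whether a gene differs more than genes in general and cannot show that a gene was stable. At an unadjusted p under 0.05 that test gave 0 members, against 5.1% of all genes, and the binomial test 9, against 67.1%. The median log2 ratio of the members, replicate 1 over replicate 2, was 0.03, and −0.01 over all genes, while the median size of the ratio was 0.151 for the members and 0.275 for all genes. Genes with as few as 10 counts in the higher library were tested, while every member had at least 568 in each. Genes of like counts were not compared, so the smaller size in the members was not separated from depth.

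E2f3 and E2f5 had the largest ratios of the members. For E2f3 the log2 ratio of scaled counts was 0.56 (95% interval 0.49 to 0.63, exact test, adjusted p = 2.73e-55), and 20.5% of all genes tested had a larger one in size. For E2f5 it was 0.51 (95% interval 0.34 to 0.68, exact test, adjusted p = 7.16e-09). Both were higher in replicate 1 on counts and on TPM. Rb1, at −0.07 (−0.14 to 0.01, exact test, adjusted p = 0.102), was the member that did not pass at any fold. E2f1 had a log2 ratio of 0.15 on scaled counts but −0.01 on deposited TPM, and E2f2 had 0.12 on scaled counts but −0.04 on TPM, so their direction differed between the measures.

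**Figure D4:**
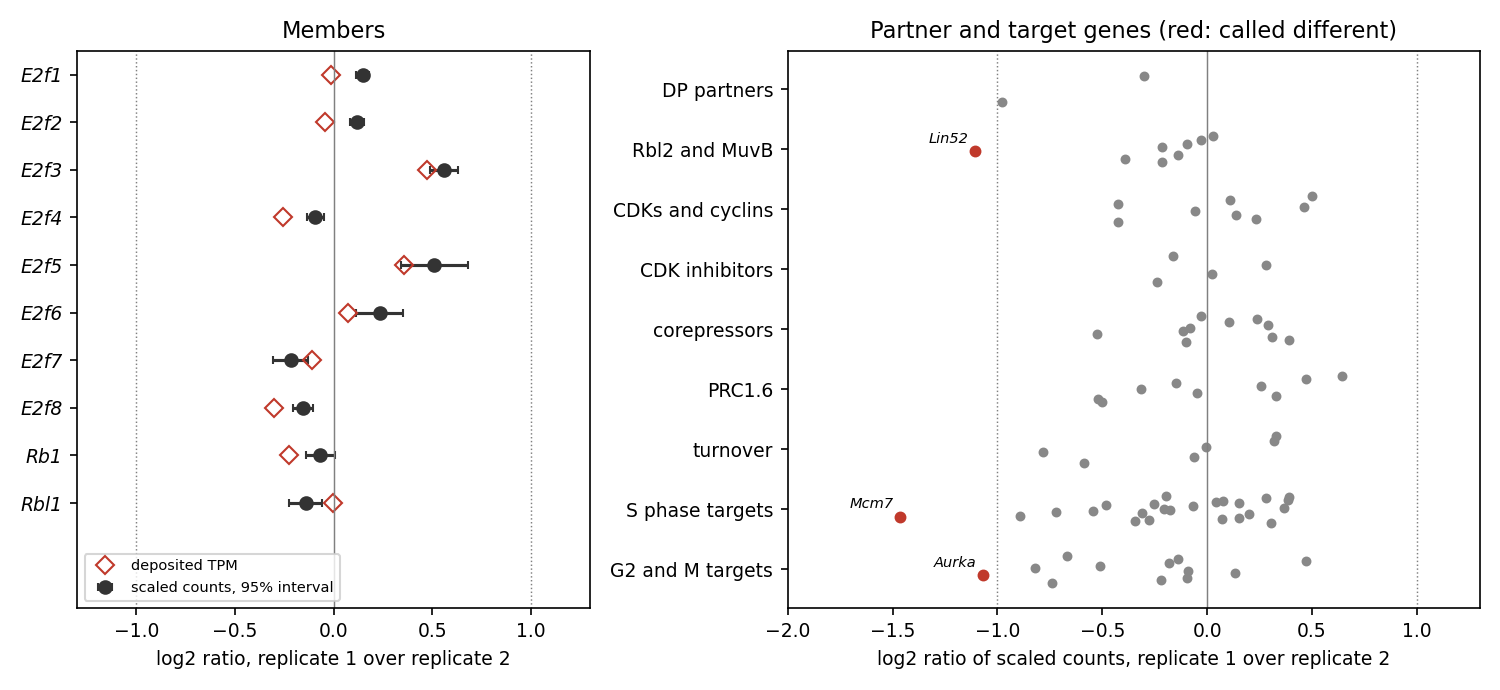
Log2 ratio of replicate 1 over replicate 2 for the members (left; filled circles are scaled counts with 95% counting intervals, open diamonds are deposited TPM) and, for scaled counts, for partner, regulator and target genes by list (right; each point is a gene, red where called different). Dotted lines mark 2-fold, all members lie inside them, and Lin52, Mcm7 and Aurka lie outside on the side of replicate 2.

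The partners of the E2Fs were lower than the most abundant E2Fs. Tfdp1, which encodes the main DP partner, had 15.95 TPM in replicate 1 and 35.11 TPM in replicate 2, the widest gap among the partners, with a log2 ratio of −0.98 just short of 2-fold (exact test, adjusted p = 5.83e-112). Tfdp2, the other DP gene, had 7.85 TPM in replicate 1 and 10.98 TPM in replicate 2. Both were detected and neither was called, although Tfdp1 passed when total counts replaced TMM (log2 ratio −1.10).

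Of 8 genes of the remaining pocket protein Rbl2 and the MuvB core with its partners, 6 were detected and 1 was called. For this and the other lists, the shares to set beside such counts are 40.0% of protein-coding entries detected and 5.77% of genes tested called. Mybl2, the B-MYB factor that joins MuvB at mitotic genes, was highest at 110.42 TPM in replicate 1 and 135.76 TPM in replicate 2. Foxm1, a mitotic gene activator, followed at 70.25 TPM in replicate 1 and 76.25 TPM in replicate 2, as did Lin37, a MuvB subunit, at 65.88 TPM in replicate 1 and 78.72 TPM in replicate 2. Over all transcripts, Rbl2 was at 3.95 TPM in replicate 1 and 5.23 TPM in replicate 2, below Rb1 and Rbl1 in both. Rbl1 on that measure was at 10.96 TPM in replicate 1 and 10.98 TPM in replicate 2. On protein-coding transcripts alone Rbl1 was at 3.54 TPM in replicate 1 and 6.72 TPM in replicate 2, a measure not computed here for Rbl2. The MuvB subunits Lin54, Lin9 and Lin52 were the lowest, with Lin54 at 2.13 TPM in replicate 1 and 2.72 TPM in replicate 2 and Lin9 at 0.52 TPM in replicate 1 and 0.80 TPM in replicate 2. Lin52 had 0.41 TPM in replicate 1 and 0.99 TPM in replicate 2, a log2 ratio of −1.11 from 46 counts in replicate 1 and 140 in replicate 2 (exact test, adjusted p = 5.54e-06).

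Among 9 kinase and cyclin genes that act on pocket proteins, 8 were detected and none was called. Cdk4, the kinase that pairs with D-type cyclins, stood at 1703 TPM in replicate 1 and 1847 TPM in replicate 2. Ccnd3, the D-type cyclin known from red cell precursors, was at 433 TPM in replicate 1 and 432 TPM in replicate 2. Ccnd2, another D-type cyclin, was at 164 TPM in replicate 1 and 247 TPM in replicate 2. The D-type cyclin Ccnd1 had 0 counts in both libraries, which allows up to 3 counts in each. The S-phase cyclin Ccna2 was at 237 TPM in replicate 1 and 190 TPM in replicate 2. The E-type cyclins were lower, Ccne1 at 29.77 TPM in replicate 1 and 17.60 TPM in replicate 2 and Ccne2 at 6.87 TPM in replicate 1 and 6.63 TPM in replicate 2.

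Of 7 CDK inhibitor genes, 4 were detected and none was called. Cdkn1a, a p53 target and inhibitor of CDK2, was the highest at 156 TPM in replicate 1 and 183 TPM in replicate 2, with Cdkn2c, an inhibitor of CDK4 and CDK6, at 58.08 TPM in replicate 1 and 54.12 TPM in replicate 2, and Cdkn1b, an inhibitor of CDK2, at 33.90 TPM in replicate 1 and 34.98 TPM in replicate 2. Cdkn2a, Cdkn2b and Cdkn1c had 4 counts or fewer in each library. All 10 corepressor genes of the pocket proteins were detected and none was called. Among these, Rbbp7, a histone-binding subunit of deacetylase complexes, led at 251 TPM in replicate 1 and 239 TPM in replicate 2. Smarca4, a chromatin remodelling ATPase, followed at 243 TPM in replicate 1 and 221 TPM in replicate 2, and Arid4b, a subunit of the SIN3 deacetylase complex, was lowest at 7.36 TPM in replicate 1 and 7.51 TPM in replicate 2.

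All 9 genes of the Polycomb complex that carries E2F6 were detected and none was called. Max, a DNA-binding partner in that complex, was at 115.74 TPM in replicate 1 and 134.01 TPM in replicate 2, well above E2f6 itself. Mga, its scaffold, was lowest at 2.69 TPM in replicate 1 and 4.13 TPM in replicate 2. Of 9 germline genes that are repressed with E2F6 in other mouse cells, none was detected and 8 were at 0 in both libraries, with Stag3, a meiotic cohesin gene, at 0.11 TPM in replicate 1 and 0 in replicate 2. All 6 genes for turnover of E2Fs and licensing factors were detected and none was called, with Cdc20, an activator of the anaphase-promoting complex, the highest at 172 TPM in replicate 1 and 155 TPM in replicate 2, and Skp2, a ubiquitin ligase subunit, the lowest at 5.76 TPM in replicate 1 and 10.32 TPM in replicate 2.

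All 24 textbook S-phase targets of E2Fs were detected and 1 was called, against 5.77% of all genes tested. Their median was 44.32 TPM in replicate 1 and 78.27 TPM in replicate 2. Their sum was 2602 TPM in replicate 1 and 2831 TPM in replicate 2, so the libraries lay closer by the sum than by the median. Rrm2, a ribonucleotide reductase subunit, Mcm2, a helicase subunit, and Cdt1, an origin licensing factor, were the highest. Rrm2 had 496 TPM in replicate 1 and 627 TPM in replicate 2. Mcm2 had 446 TPM in replicate 1 and 403 TPM in replicate 2, and Cdt1 had 431 TPM in replicate 1 and 374 TPM in replicate 2. Chek1, a checkpoint kinase, and Cdc6, an origin licensing factor, were among the lowest. Chek1 was at 3.03 TPM in replicate 1 and 3.10 TPM in replicate 2, and Cdc6 was at 3.30 TPM in replicate 1 and 4.15 TPM in replicate 2. The gene called, Mcm7, another helicase subunit, had 35.95 TPM in replicate 1 and 103.96 TPM in replicate 2, a log2 ratio of −1.46. When total counts replaced TMM, Pcna, the sliding clamp of DNA replication, was called as well (log2 ratio −1.01). Of the 21 S-phase targets with a promoter window, 10 held a match to the E2F consensus, against 2.60% of all genes with windows: Mcm3, Mcm5, Mcm6, Mcm7, Cdc6, Cdt1, Orc1, Pola1, Cdc25a and Lig1. Matches were not restricted to the textbook target lists: 3 of the 8 erythroid markers with a window (Gfi1b, Lyl1 and Kit) held one. Of the 9 germline genes, which are repressed with E2F6 in other mouse cells, 2 (Slc25a31 and Sycp3) held one. Among genes with a window, so did 1 of 2 partners, 1 of 6 in the Rbl2 and MuvB list and 1 of 5 kinases and cyclins. The same held for 1 of 6 CDK inhibitors, 1 of 7 corepressors and 1 of 7 genes of the E2F6 Polycomb complex. The 6 turnover genes and the 7 markers of other cells with a window held 0. For these lists too, the matches were not separated from base composition.

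All 12 textbook targets expressed in G2 and mitosis were detected and 1 was called, against 5.77% of all genes tested. Aurkb, a mitotic kinase, was highest at 282 TPM in replicate 1 and 302 TPM in replicate 2, and Kif11, a spindle motor, lowest at 5.33 TPM in replicate 1 and 6.56 TPM in replicate 2. Aurka, the spindle pole kinase, was called, with 9.51 TPM in replicate 1 and 22.26 TPM in replicate 2 and a log2 ratio of −1.07 (exact test, adjusted p = 2.76e-90). The median log2 ratio was −0.20 for this list and −0.12 for the S-phase list, against −0.01 over all genes tested. Of the 11 genes of this list with a window, 1 (Cdk1) held the consensus. Lin52, Mcm7 and Aurka were not called by edgeR's negative binomial exact test, which called 0 genes of these lists with its spread taken from the same 2 libraries.

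Some members overlap other genes, and whether the counting used strand is not given in the sources used here. Rb1 shares 488 exonic bases with Rcbtb2 on the opposite strand, which had 21.05 TPM in replicate 1 and 24.57 TPM in replicate 2, above Rb1 itself. Rb1 also shares 408 with Lpar6, at 0.04 TPM in replicate 1 and 0.06 TPM in replicate 2. E2f8 shares 610 with the antisense transcript Gm2788, at 0.33 TPM in replicate 1 and 0.24 TPM in replicate 2, and E2f5 shares 26 with 1810022K09Rik, at 13.86 TPM in replicate 1 and 19.96 TPM in replicate 2. The part of these overlaps in the levels was not tested.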

How the data were processed

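For each library the authors deposited gene and transcript tables, computed on mm10 with annotation M4 from its own transcriptome alignment, per the deposited descriptions; which aligner and counting tool they used is not given in the sources used here. The deposited expected counts are estimated read pairs, with shared reads divided by a model. The authors' TPM values are scaled by effective length and library total, per the file headers, and the deposited percent values give each transcript's part of its gene's TPM. The deposited bounds of the TPM credibility interval were treated as scores, and their level is not given in the headers. Another 26345 entries (spike-ins and numbered entries) held 0 counts in replicate 1 and 1 in replicate 2 and were left out. Of the gene entries, 42462 (98.0%) matched GENCODE M21, and 29 of 33 member transcripts had the same length there.

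Means and SDs are over the 2 libraries. Expected counts were rounded and tested, given TMM-scaled totals, by an exact binomial test conditional on the sum (two-sided), where either library had at least 10, with Benjamini-Hochberg adjustment; 1 library against 1 leaves edgeR's quasi-likelihood test no residual degrees of freedom. Intervals are 95% Clopper-Pearson intervals and, like the limit of 3 counts for a count of 0, cover counting error only. Promoter windows came from RefSeq. The members, gene lists, tests and alternatives were chosen with earlier results of these data known. All members are named, with up to 3 genes at each end of every list by mean TPM and any list gene called different. As an exception, some list genes are counted but not reported by name here. Genes called only under another setting, the promoter matches and Ccnd2 were named after their values were seen. Alternatives were other scalings, filters, folds, posterior mean values, counts not divided by length and leaving out each library. Figures were drawn with matplotlib 3.10.9, and the other tools were SciPy 1.17.1, NumPy 2.4.6 and pandas 2.3.3 in Python 3.11.15, and edgeR 4.0.16 in R 4.3.3.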

Additional observations from a re-analysis of the deposited data

How the results depend on the processing

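All 10 members stayed detected under posterior mean TPM, rescaling to protein-coding genes without histones and a threshold of 0.5 TPM, and 9 did at 5 TPM. The log2 ratio of E2f1 to E2f3 over E2f4 to E2f6, 1.07 on TPM, was 1.65 on expected counts and 0.81 on protein-coding transcripts only, a setting chosen after seeing the data, and ranged from 0.93 to 1.21 when either library was left out. The log2 ratio of Rbl1 over Rb1, 0.02 on TPM, was −0.37 on expected counts and −1.13 on protein-coding transcripts, and ranged from −0.09 to 0.14 when either library was left out. The first shift of each ratio follows from not dividing by length. For the second, the transcripts summed differ, and why they differ was not tested. The order of levels has no value with a library left out, since its ranges need both.

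The 671 genes called between the libraries, 215 higher in replicate 1 and 456 in replicate 2, became 421 with 50 or more counts (109 and 312), 7541 with no fold requirement (3772 and 3769), 176 at 4-fold (73 and 103) and 114 with edgeR's negative binomial exact test (58 and 56). With total counts they were 800 (182 and 618). The members called were 9 with no fold requirement and 0 under every other alternative run. Total counts in place of TMM shifted all log2 ratios by −0.12. The members' median ratio was then −0.093, against 0.03, with 5 members still higher in replicate 1, of which E2f2 was at 0.00. Among 62 values of single members under an alternative, 36 stayed within 1 SD and 26 moved, among them the share of all 8 E2F genes in the E2F sum on expected counts. The 36 include the levels of E2f1, E2f4, E2f5 and E2f6 on protein-coding transcripts. Those could not move, since all TPM of these genes was in such transcripts. Another 52 values, with a library left out, are not counted, since with 2 libraries each lies within 1 SD of the mean by construction. Dropping the leading base of the motif, chosen after seeing the data, gave matches in 5 of 7 members and 10.9% of all genes. No paired analysis was possible because the libraries form 1 group. With 1 group and 1 shared cell sample, the data limit the error to the spread of 2 libraries. The levels of E2f3, E2f7 and Rbl1 depend on whether transcripts not annotated as protein-coding are summed. For E2f3, coding transcripts held 95.8% of the counts in replicate 1 but 26.4% of the TPM. The step from counts to TPM is the scaling by effective length. In replicate 1, 1 count gave 0.248 TPM for E2f3-202 and 0.00393 TPM for E2f3-201. How far the division of reads between transcripts set these levels was not tested.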
